A study of Rattus norvegicus with 16 samples.

Results

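The comparison set 8 fasted livers against 8 livers of rats that were eating, all from male Sprague Dawley rats, 1 animal and 1 array each. It took all 16 arrays of the series. On the fasted side stood 4 livers from phase 3 of fasting (P3) and 4 from phase 2 (P2). On the eating side stood 4 livers of rats that had been fasted to phase 3 and then given food again for 2 days (P3r2) and 4 of rats that were fed throughout (Fed). Arrays were chosen by their titles. The difference taken was the mean of the P3 and P2 group means minus the mean of the P3r2 and Fed group means. A gene that moved in only 1 of the fasted or 1 of the eating groups can also be called by it, so group values are given for such genes. How long each fast lasted, the age of the rats and the hour of sampling were not stated. The P3r2 rats had fasted to phase 3 as well, so the eating side holds animals with and without a long fast behind them. Expression was read on Affymetrix Rat Exon 1.0 ST arrays, whose deposited values are log2 signals per transcript cluster, the set of probes for 1 gene locus.

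Liver switches between making fat from dietary sugar and releasing glucose and ketone bodies for other tissues. After a meal, insulin raises the transcription factor SREBP-1c and glucose raises ChREBP, and both drive the enzymes that turn sugar into fatty acids. Without food, insulin falls and glucagon and glucocorticoids rise, so FOXO1 enters the nucleus and PPAR alpha is activated by fatty acids from adipose tissue. A long fast has a phase 2, in which fat is burnt and body protein is largely kept, and a phase 3, in which the breakdown of protein speeds up.

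Levels below are log2 signals and differences are in log2 units, fasted minus eating, ± the standard error of the limma fit over the 16 arrays. A gene was called when its limma p, adjusted by Benjamini-Hochberg over 18884 transcript clusters, lay below 0.05. Group means carry the standard deviation of 4 arrays, and precision is limited by the number of arrays. Each array is an animal of its own by the labels. The material is whole liver, so fewer cells of a type and less RNA per cell cannot be told apart in any value given here. The correlation of a pair of arrays was 0.966 to 0.992 inside a group and 0.912 to 0.985 across groups. Values spread least on Fed 2, P2 4 and P3 3, which also had the lowest weights when arrays were weighted by their fit. Hepatocyte markers were bright on all arrays, with summed linear signals of 57420 to 62870 in P3, 68230 to 72760 in P2, 65200 to 67470 in P3r2 and 56960 to 69470 in Fed.

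Between fasted and eating livers, 1611 transcript clusters were higher (8.53% of those tested) and 2123 were lower (11.2%), 19.8% in all. At least 2-fold differences were found for 228 of the higher (1.21%) and 532 of the lower (2.82%). All 8 fasted values lay above all 8 eating values in 178 transcript clusters (0.943%), and all 8 lay below in 411 (2.18%). The median difference over everything tested was 0.04 log2 units. With the array spread added to the model the split was 1892 higher and 1525 lower. With 1 mean per side in place of 1 per group, so that the differences between P3 and P2 and between P3r2 and Fed count as scatter, 776 were higher and 1378 lower.

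A promoter from RefSeq (assembly GRCr8, 250 bases before to 50 after the annotated start) was found for 127 of the 156 genes that the selection rule names. 4 are shown, from genes of the fall in lipid synthesis, the fall in secretory folding and the rise in the insulin-repressed group, because their letters hold motifs described for those groups. Capitals mark the motif, and each sequence runs 5′ to 3′ on the strand of the gene. Igfbp1 (chr14:86261027-86261326, plus strand) holds CAAAACA, a core of the insulin response element bound by FOXO factors, 121 to 115 bases before the start. Fads1 (chr1:216252442-216252741, plus strand) and Srebf2 (chr7:115543057-115543356, plus strand) hold a CCAAT box, the site of NF-Y, a partner of the SREBP factors, which reads ATTGG on the opposite strand as in Srebf2. Calr (chr19:40213117-40213416, plus strand) holds an ER stress element, CCAAT then 9 bases then CCACG, here on the opposite strand, and this element contains a CCAAT box by its make-up.
Igfbp1: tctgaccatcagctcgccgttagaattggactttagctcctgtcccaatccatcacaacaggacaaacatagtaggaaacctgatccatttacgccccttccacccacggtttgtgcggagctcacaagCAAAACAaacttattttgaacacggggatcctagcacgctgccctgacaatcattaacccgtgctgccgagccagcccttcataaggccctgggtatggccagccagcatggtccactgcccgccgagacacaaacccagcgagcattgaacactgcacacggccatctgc
Fads1: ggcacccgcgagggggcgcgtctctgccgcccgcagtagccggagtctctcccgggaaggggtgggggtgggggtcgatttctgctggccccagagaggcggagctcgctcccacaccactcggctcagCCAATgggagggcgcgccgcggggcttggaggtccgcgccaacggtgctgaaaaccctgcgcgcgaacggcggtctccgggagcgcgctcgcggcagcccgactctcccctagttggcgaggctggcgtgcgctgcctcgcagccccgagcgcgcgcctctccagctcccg
Srebf2: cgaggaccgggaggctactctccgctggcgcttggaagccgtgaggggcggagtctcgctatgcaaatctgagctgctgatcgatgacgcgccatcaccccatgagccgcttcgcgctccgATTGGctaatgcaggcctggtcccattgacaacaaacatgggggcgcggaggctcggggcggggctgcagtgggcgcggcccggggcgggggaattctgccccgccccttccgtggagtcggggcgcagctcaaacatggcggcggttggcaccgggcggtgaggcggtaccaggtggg
Calr: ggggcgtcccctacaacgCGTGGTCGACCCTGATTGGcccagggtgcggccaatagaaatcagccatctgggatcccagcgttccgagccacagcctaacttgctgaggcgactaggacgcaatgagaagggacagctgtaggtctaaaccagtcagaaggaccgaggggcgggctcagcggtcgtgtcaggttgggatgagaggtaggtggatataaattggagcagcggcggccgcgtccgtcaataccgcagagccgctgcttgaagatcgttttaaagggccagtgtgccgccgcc
Both strands were searched in 33469 promoters of the same length. CCAAT stood in 37.5% of them, in 12 of 19 promoters of the lipogenesis list, in 10 of 13 of the cholesterol list and in 14 of 16 of the list for folding and secretion. It also stood in 7 of 14 for insulin and FOXO1 targets, 10 of 20 for gluconeogenesis and 4 of 11 for cytosolic ribosomal proteins. The ER stress element stood in 22 of all promoters (0.0657%) and in 6 of the 16 for folding and secretion. These were the promoters of Calr, Canx, Dnajc3, Hsp90b1, Hspa5 and Xbp1. CAAAACA stood in 6.28% of all promoters and in 1 of 14 of the list of insulin and FOXO1 targets. A match describes letters in this window and is not evidence that a factor binds there.

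Of 37 gene lists, that of fatty acid synthesis had the lowest median in fasted livers. Of 22 measured genes of lipogenesis, 19 fell, 2 did not pass the test and 1, the phosphatidate phosphatase Lpin1, rose, against 11.2% lower and 8.53% higher over all transcript clusters. In 15 of the 19 the 8 fasted values lay below all 8 eating values, against 19.3% of all transcript clusters called lower. The median of the list was -2.77 log2 units. Scd (transcript cluster 7062917, chromosome 1), the desaturase that makes oleate, read 4.19 to 7.40 (median 4.81) log2 signal in fasted livers, against 11.65 to 12.85 (median 12.52) in eating livers. The sides were far apart, although P3 3 at 7.40 stood above the other fasted livers. Scd fell by 7.36 ± 0.30 log2 units, or 164-fold (adjusted p = 2.8e-10).

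The elongase Elovl6 (7199114, chromosome 2) had 3.03 to 3.89 (median 3.44) log2 signal in fasted livers and 7.32 to 11.39 (median 9.50) in eating livers. It fell by 5.83 ± 0.20 log2 units (adjusted p = 3.2e-11). Its 8 fasted livers were near one level, below the array medians of 4.34 to 4.46, where a phase difference could be hidden. P3r2 livers at 10.73 ± 0.47 exceeded Fed livers at 7.82 ± 0.61 (adjusted p = 5.8e-05). ATP citrate lyase Acly, which supplies acetyl-CoA in the cytosol, measured 6.86 to 7.98 (median 7.62) in fasted livers, against 10.34 to 12.30 (median 11.69) in eating livers, and fell by 3.89 ± 0.19 log2 units. Acetyl-CoA carboxylase Acaca, the committed step, measured 5.49 to 7.40 (median 6.63) in fasted livers, against 9.14 to 10.48 (median 9.91) in eating livers, a fall by 3.19 ± 0.19 log2 units. In both genes the sides did not overlap.

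Fads1 and Fads2, the desaturases of polyunsaturated fatty acids, also fell without overlap, but went further down in phase 3. Fads1 (7039650) averaged 4.81 ± 0.82 in P3 and 7.53 ± 0.61 in P2 livers, against 11.65 ± 0.07 in P3r2 livers (SD, n = 4 each), and its Fed livers read 10.95, 11.31, 10.85 and 10.87. Fads2 averaged 5.17 ± 1.02 in P3 and 9.38 ± 0.45 in P2 livers, against 12.67 ± 0.09 in P3r2 and 11.64 ± 0.32 in Fed livers. The differences over food were -5.15 ± 0.24 and -4.88 ± 0.26 log2 units (adjusted p = 1.2e-09 for Fads1 and 6.6e-09 for Fads2). Pyruvate kinase Pklr, the last step of glycolysis in liver, fell by 4.99 ± 0.23 log2 units and Thrsp, a regulator of lipogenesis, by 3.47 ± 0.10, again with lower levels in P3 than in P2. For Thrsp the P3 livers averaged 7.84 ± 0.18 and the P2 livers 10.71 ± 0.17, against 13.14 ± 0.12 in P3r2 and 12.35 ± 0.25 in Fed livers, so that no group overlapped another. Srebf1, which encodes SREBP-1, read 7.17 to 8.60 (median 7.73) in fasted and 9.89 to 10.77 (median 10.42) in eating livers, a fall by 2.54 ± 0.15 log2 units (adjusted p = 1.4e-08). Its P3r2 and Fed means differed by 0.00 log2 units (95% interval -0.44 to 0.44).

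**Figure D1:**
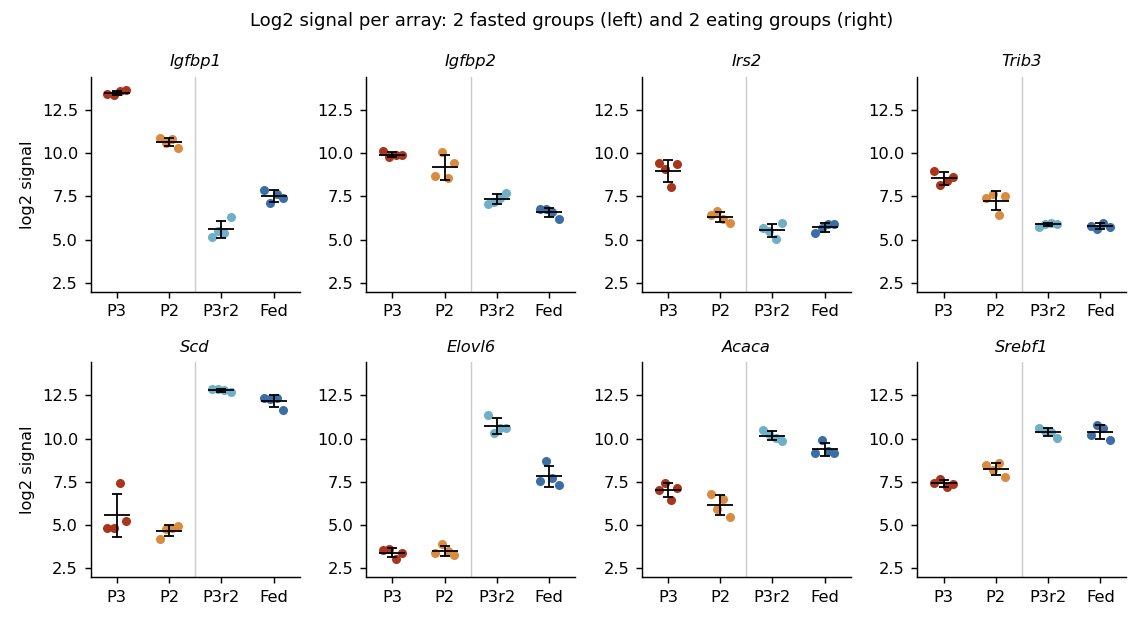
Log2 signal (vertical axis) of 8 genes on each array, with P3 and P2 left of the grey line and P3r2 and Fed right of it. Points are arrays, bars are the mean and SD of 4 arrays, and in each panel all 8 fasted points lie on 1 side of all 8 eating points.

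Cholesterol synthesis fell with it. Of 16 measured genes, 15 fell and Hsd17b7 did not pass the test, with a median of -2.0 log2 units and no overlap of the sides in 12. The cytosolic thiolase Acat2, which starts the pathway, read 4.95 to 6.39 (median 5.57) in fasted livers, against 7.40 to 9.97 (median 9.03) in eating livers. It fell by 3.43 ± 0.20 log2 units (adjusted p = 1.4e-08). Squalene epoxidase Sqle (4.25 to 5.72 (median 5.06) fasted, 6.74 to 8.46 (median 7.97) eating) fell by 2.73 ± 0.19, and its P3 and P2 livers differed by 0.23 log2 units (95% interval -0.34 to 0.81). The sterol demethylation enzymes Msmo1 and Nsdhl fell by 2.74 ± 0.20 and 2.59 ± 0.16 log2 units, and Nsdhl was 2.22 units lower in P3 than in P2. Srebf2, which encodes the factor that drives these genes, averaged 6.95 ± 0.43 in P3 and 7.07 ± 0.52 in P2, against 8.28 ± 0.16 in P3r2 and 8.15 ± 0.18 in Fed livers. It fell by 1.20 ± 0.17 log2 units (adjusted p = 8.9e-05). Srebf2 was picked for no overlap and small differences inside each side, so both are a description.

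The counts of lower genes in these lists stayed within 1.5 times of these values under each setting tried, with 19 to 20 lipogenesis genes and 15 to 16 cholesterol genes lower when any 1 array was left out. The higher count of 1 in lipogenesis was 2 without Fed 2 or without the 3 arrays of narrow spread, and 0 with 1 mean per side. Within the separate pairs of groups the median of the lipogenesis list was -1.92 for P2 minus Fed and -3.30 for P3 minus P3r2, and that of the cholesterol list was -1.29 and -2.65. P2 minus Fed and P3 minus P3r2 share no array, only the estimate of the spread.

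In glucose use and glycogen, 5 of 12 genes fell and 1, Pfkfb3, rose, against 11.2% lower and 8.53% higher over everything tested. With 1 mean per side 3 fell. The glycogen-targeting subunit Ppp1r3b read 5.22 to 9.34 (median 7.54) in fasted livers, against 10.20 to 10.88 (median 10.33) in eating livers, a fall by 3.00 ± 0.22 log2 units. Glycogen phosphorylase Pygl read 7.51 to 9.23 (median 8.86) in fasted and 10.31 to 10.76 (median 10.67) in eating livers and fell by 1.94 ± 0.17. Genes for building and for breaking down glycogen were thus both lower, and neither overlapped between the sides. In the citric acid cycle and pyruvate dehydrogenase list, 8 of 20 fell and 3 (Idh3b, Idh3g and Pdp1) rose (5 and 0 with 1 mean per side). Its largest fall was that of Pdp2, a phosphatase that activates pyruvate dehydrogenase, by 1.91 ± 0.27 log2 units (4.16 to 6.52 (median 5.72) fasted, 7.06 to 8.24 (median 7.46) eating). Pdk4, the kinase that turns pyruvate dehydrogenase off, was not called, with 0.02 ± 0.19 log2 units (adjusted p = 0.949). Its levels were 8.39 ± 0.69 in P3 and 8.09 ± 0.28 in P2, against 7.64 ± 0.32 in P3r2 and 8.80 ± 0.11 in Fed livers, so the eating groups lay on both sides of the fasted ones.

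Among targets of insulin and FOXO1, 8 of 17 genes rose, against 8.53% over everything tested, and 5 of 17 with 1 mean per side. Lower were 3 (Sesn3, Pdk2 and Akt2), against 11.2%. The medians of the list had opposite signs, -0.30 for P2 minus Fed and 0.99 for P3 minus P3r2. Of the 17 genes 9 were higher in P3 than in P2, against 13.5% of everything tested. Igfbp1, a secreted protein that binds IGF1 and is repressed by insulin, had the largest rise of all genes without overlap. It read 13.37 to 13.63 in the P3 livers and 10.33 to 10.88 in the P2 livers, against 5.16 to 6.31 in the P3r2 livers and 7.12 to 7.89 in the Fed livers. All 4 groups stood apart from one another. The rise was 5.52 ± 0.16 log2 units, or 45.9-fold (adjusted p = 4.3e-12), and P3r2 lay 1.93 log2 units below Fed (adjusted p = 3.1e-04). Igfbp2, a related binding protein, read 8.56 to 10.10 (median 9.85) in fasted livers and 6.19 to 7.73 (median 6.94) in eating livers. It rose by 2.59 ± 0.19 log2 units (adjusted p = 1.5e-07), by 2.60 in P2 minus Fed and by 2.58 in P3 minus P3r2.

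Irs2, an adaptor of the insulin receptor, and Trib3, a pseudokinase that binds AKT, rose by 2.01 ± 0.19 and 2.06 ± 0.16 log2 units without overlap, for Irs2 by a margin of hundredths between its lowest fasted (5.96) and highest eating value (5.94). Irs2 averaged 8.97 ± 0.64 in P3 and 6.31 ± 0.30 in P2 livers, against 5.54 ± 0.38 in P3r2 and 5.71 ± 0.25 in Fed livers, and P2 minus Fed alone was not called (adjusted p = 0.159). The insulin receptor gene Insr and Foxo1 did not pass the test, with 0.01 ± 0.15 and 0.16 ± 0.16 log2 units. Insr was above the eating groups in P3 (8.55 ± 0.40) and below them in P2 (7.38 ± 0.39), with 7.86 ± 0.18 in P3r2 and 8.04 ± 0.21 in Fed livers. After removal of a trend with gene length, Insr and Foxo1 did pass, with adjusted p of 0.0439 for Insr and 0.0422 for Foxo1. In the growth hormone and IGF list 5 of 15 fell and Igfbp2 alone rose, against 11.2% lower and 8.53% higher over everything tested. Igf1, the growth factor itself, fell by 1.12 ± 0.29 log2 units (8.48 to 11.41 (median 11.06) fasted, 11.32 to 12.17 (median 11.72) eating, overlapping), and the growth hormone receptor Ghr by 1.80 ± 0.18. Igf1 was no longer called with the array spread as a covariate or with 1 mean per side (adjusted p = 0.0798 and 0.0542).

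Amino acid breakdown rose more often than it fell, with 11 of 26 genes higher and 5 lower (7 and 3 with 1 mean per side). The 11 and 5 were 42.3% and 19.2% of the list, against 8.53% and 11.2% of everything tested. Tryptophan dioxygenase Tdo2 read 12.08 to 12.81 (median 12.43) in fasted livers, against 10.34 to 11.52 (median 11.27) in eating livers. It rose by 1.23 ± 0.11 log2 units (adjusted p = 1.8e-06), by 1.24 in P2 minus Fed and by 1.21 in P3 minus P3r2. Of 7 urea cycle genes 4 rose and 1, Otc, fell. Argininosuccinate lyase Asl read 11.42 to 13.18 (median 12.41) in fasted livers and 10.26 to 11.18 (median 10.76) in eating livers, and rose by 1.54 ± 0.09 without overlap. Csad, which makes hypotaurine on the way to taurine, went the other way: it fell by 1.91 ± 0.20 log2 units (6.36 to 8.39 (median 7.85) fasted, 8.69 to 10.13 (median 9.54) eating).

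Gluconeogenesis split, with 10 of 24 genes higher and 8 lower, against 8.53% higher and 11.2% lower over everything tested. With 1 mean per side 5 were higher. Serine dehydratase Sds, which turns serine into pyruvate, rose most of the list, by 2.83 ± 0.38 log2 units (9.41 to 12.06 (median 11.03) fasted, 6.23 to 9.72 (median 8.26) eating, overlapping). For Pck1 and G6pc1, the pathway's best known enzymes, the eating groups differed from each other. Pck1, phosphoenolpyruvate carboxykinase, read 12.98, 12.88, 12.75 and 13.13 in the P3 livers and 11.89, 11.91, 11.86 and 11.10 in the P2 livers, against 8.01, 9.09, 7.23 and 9.0 in the P3r2 livers and 11.95, 10.80, 11.64 and 11.66 in the Fed livers. P2 and Fed livers overlapped, P3 was above both, and P3r2 stood below all others. Pck1 rose by 2.39 ± 0.25 log2 units over food, but by 4.60 in P3 minus P3r2 and 0.18 in P2 minus Fed (adjusted p = 0.772 for the last). G6pc1, the catalytic subunit of glucose-6-phosphatase, averaged 12.84 ± 0.31 in P3 and 11.02 ± 0.57 in P2, against 9.98 ± 0.60 in P3r2 and 11.65 ± 0.16 in Fed livers. Its difference over food was 1.12 ± 0.20 log2 units, and with 1 mean per side it was not called (adjusted p = 0.142). Ppargc1a, a coactivator of the fasting response, rose by 2.51 ± 0.20, with 9.80 ± 0.67 in P3 and 5.70 ± 0.40 in P2, against 5.79 ± 0.17 in P3r2 and 4.69 ± 0.37 in Fed livers.

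Of 28 fatty acid oxidation genes 3 rose (Pex11a, Cpt1a and Ech1), 7 fell and 18 did not pass the test, against 8.53% higher and 11.2% lower over everything tested. The list's median was -0.01 log2 units. Without Fed 2 the count of lower genes was 11, and with 1 mean per side it was 2. Inside the list 18 genes were lower in P3 than in P2, against 8.53% of everything tested, and the medians were 0.33 log2 units for P2 minus Fed and -0.51 for P3 minus P3r2. Ech1, an isomerase for unsaturated fatty acids, averaged 9.99 ± 0.23 in P3 and 10.86 ± 0.17 in P2, against 9.12 ± 0.38 in P3r2 and 8.78 ± 0.51 in Fed livers, and rose by 1.48 ± 0.16 log2 units (adjusted p = 9.5e-06). Cpt1a, the gate for fatty acids into mitochondria, rose by 0.92 ± 0.21 with overlap, with 10.69 ± 0.32 in P3 and 9.35 ± 0.75 in P2, against 9.39 ± 0.33 in P3r2 and 8.80 ± 0.27 in Fed livers. It was not called with 1 mean per side (adjusted p = 0.0779). Ppara, which encodes PPAR alpha, was not called at 0.01 ± 0.21 log2 units, with 9.25 ± 0.59 in P3 and 7.96 ± 0.47 in P2, against 8.75 ± 0.21 in P3r2 and 8.44 ± 0.47 in Fed livers.

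In ketone body metabolism, Bdh1 was the only one of 5 measured genes called. This dehydrogenase, which interconverts acetoacetate and 3-hydroxybutyrate, averaged 5.15 ± 0.26 in P3 and 9.84 ± 0.47 in P2 livers, against 10.79 ± 0.16 in P3r2 and 11.22 ± 0.11 in Fed livers. It fell by 3.50 ± 0.13 log2 units without overlap, with most of the fall in phase 3. Of 15 genes of fatty acid uptake and lipid droplets 8 fell and 3 (Plin5, Fabp4 and Lpl) rose. For everything tested these shares were 11.2% and 8.53%. The lower count was 4 with 1 mean per side, and without P2 2, P3r2 1 or P3r2 2 the higher count was 1. The droplet coat protein Plin2 read 6.54 to 9.56 (median 7.98) in fasted livers and 9.69 to 10.57 (median 10.28) in eating livers, and fell by 2.30 ± 0.16 log2 units (adjusted p = 8.0e-08).

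**Figure D2:**
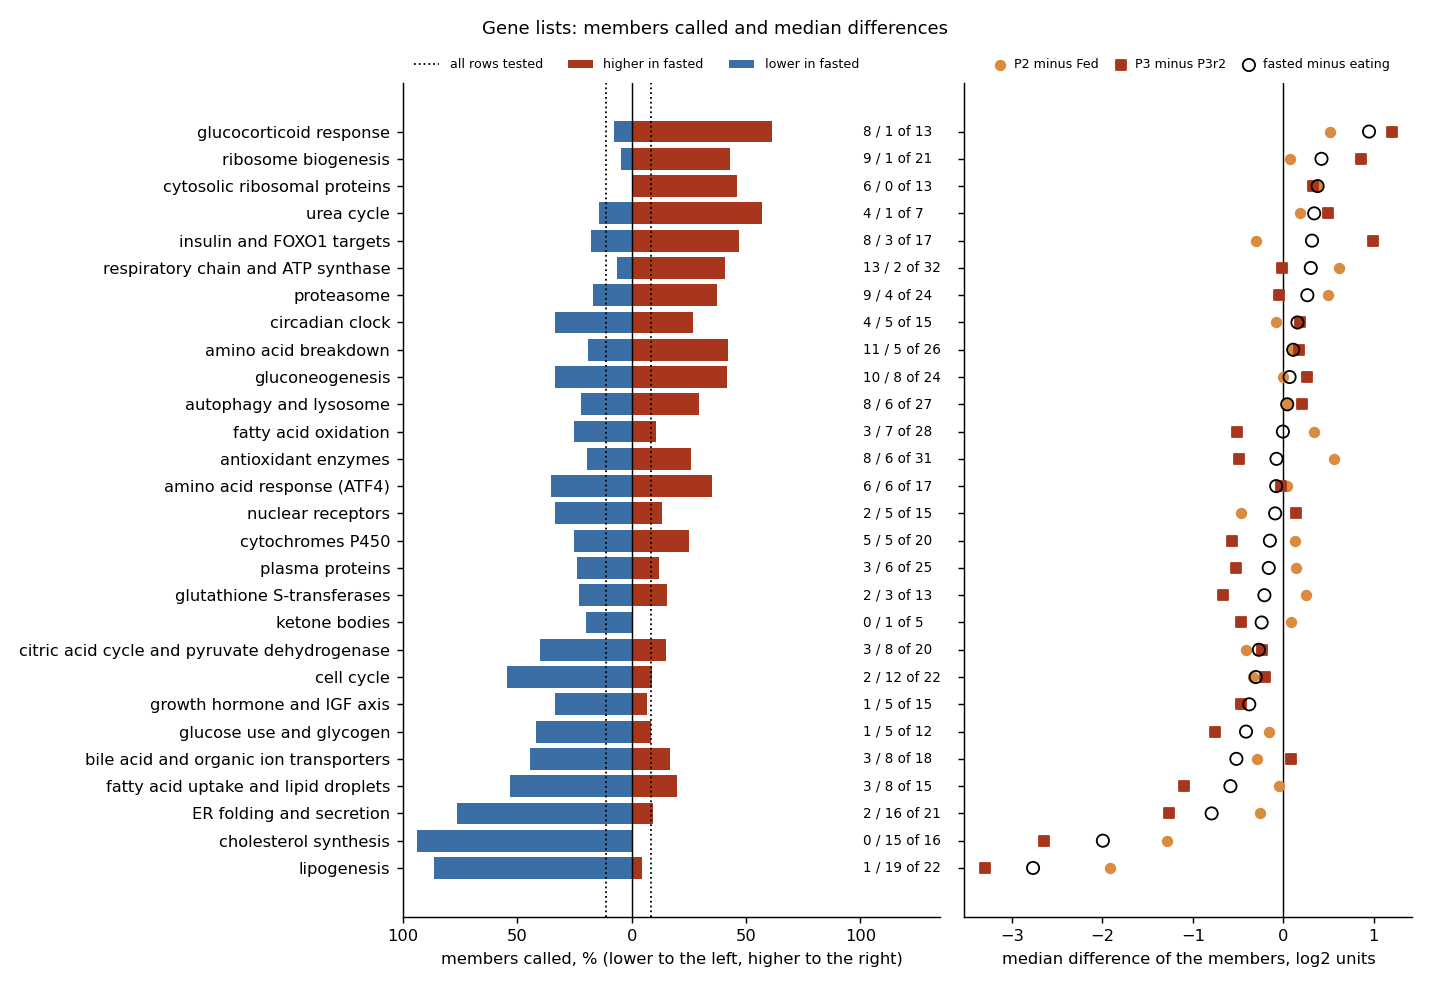
Left, percent of each list's measured genes called higher or lower in fasted livers, with the counts printed and dotted lines at 8.53% and 11.2% for all transcript clusters. Right, median log2 difference of each list for P2 minus Fed, P3 minus P3r2 and fasted minus eating. Lipogenesis and cholesterol synthesis lie lowest. Several lists have medians of opposite sign in the separate pairs, among them fatty acid oxidation, antioxidant enzymes and insulin and FOXO1 targets.

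Genes for folding and export of secreted proteins were lower in fasted livers. Of 21 measured, 16 fell, 2 (Dnajb9 and Edem1) rose and 3 did not pass the test, against 11.2% lower and 8.53% higher over everything tested. The median of the list was -0.79 log2 units, with no overlap in 6. Sec61a1, the channel through which new proteins enter the endoplasmic reticulum, read 10.05 to 11.06 (median 10.75) in fasted livers, against 11.62 to 11.89 (median 11.81) in eating livers. It fell by 1.11 ± 0.13 log2 units (adjusted p = 2.2e-05), and the 95% interval of its P3 minus P2 difference was -0.40 to 0.39. Sec61a1 was picked for small differences inside each side, so this interval is a description. The chaperone Hyou1 (7.08 to 9.09 (median 8.08) fasted, 9.58 to 10.18 (median 9.79) eating) fell by 1.75 ± 0.14, the disulfide isomerase Pdia6 by 1.40 ± 0.10 and calreticulin, Calr, by 1.23 ± 0.11, all without overlap. For Pdia6 the P2 livers alone did not pass against Fed (-0.43, adjusted p = 0.0554), while P3 against P3r2 gave -2.36 log2 units. Over the list, 12 genes were lower in P3 than in P2, against 8.53% of everything tested, and medians were -0.25 for P2 minus Fed and -1.26 for P3 minus P3r2. Gfpt1, the first enzyme of the hexosamine pathway that feeds protein glycosylation, fell by 1.30 ± 0.13 log2 units with the same value in both pairs of groups (-1.30 and -1.30). Gfpt1 too was picked for small differences inside each side, which keeps the values of the pairs alike.

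Of 13 cytosolic ribosomal proteins measured, 6 rose and none fell, against 8.53% and 11.2% of everything tested. Between P3 and P2, 1 of them differed. Rpl3 read 9.85 to 11.37 (median 10.38) in fasted livers, against 8.0 to 9.67 (median 8.97) in eating livers, a rise by 1.47 ± 0.22 log2 units, and Rpl14 rose by 1.09 ± 0.16. Rpl14 has a second, dimmer transcript cluster at 0.35 ± 0.18 log2 units (adjusted p = 0.191), and the mean of both rose by 0.72. Ribosomal proteins have many near-identical pseudogene copies, so their probes may read more than 1 locus. In ribosome biogenesis 9 of 21 rose and Nop2 fell, but 17 of the 21 were higher in P3 than in P2, against 13.5% of everything tested, and with 1 mean per side 3 rose. Of 32 genes of the respiratory chain and ATP synthase, 13 rose and 2 (Ndufs1 and Ndufv3) fell (7 higher with 1 mean per side). Their median was 0.61 log2 units for P2 minus Fed but -0.02 for P3 minus P3r2. In P3r2 9 of the 32 were higher than in Fed, against 2.21% of everything tested. In the proteasome, with medians of 0.49 for P2 minus Fed and -0.05 for P3 minus P3r2, 9 of 24 rose and 4 fell. That higher count was 16 after quantile normalization, 4 without P3 3, 5 without P3r2 3 and 2 with 1 mean per side, and the lower count was 2 without Fed 1, 3 or 4, P2 1 or 4, P3 2 or 4, or P3r2 1 or 2. Short genes were more often higher and long genes more often lower: with 8226 brighter transcript clusters of known gene length in 5 bins, the shortest bin held 362 higher and 219 lower, and the longest bin held 118 higher and 481 lower. In them the Spearman correlation of the difference with gene length was -0.249 over food, -0.381 for P2 minus Fed and -0.0432 for P3 minus P3r2. The part of gene length in these list counts was not tested gene by gene. Among those transcript clusters 14 respiratory chain genes rose with the trend with length taken out and 15 before, and in the proteasome 12 rose with it taken out and 10 before.

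In autophagy and lysosome, 8 of 27 genes rose and 6 fell, against 8.53% and 11.2% of everything tested. The lower count was 3 with 1 mean per side or with the array spread as a covariate. Gabarapl1, a protein of the autophagosome membrane, read 8.81 to 9.71 (median 9.13) in fasted livers, against 6.96 to 8.01 (median 7.31) in eating livers, and rose by 1.79 ± 0.12 log2 units (adjusted p = 4.8e-08). The related Map1lc3b rose by 1.54 ± 0.13 and the lysosomal protease cathepsin L, Ctsl, by 1.69 ± 0.12. For Ctsl the fasted livers held 11.41 to 12.64 (median 12.05) and the eating livers 9.92 to 10.75 (median 10.33), so neither this gene nor Gabarapl1 overlapped.

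Of 22 cell cycle genes 12 fell and 2, the inhibitors Cdkn1a and Cdkn1b, rose, against 11.2% and 8.53% of everything tested. Cyclin D1, Ccnd1, which brings cells into the cycle, read 4.81 to 6.60 (median 5.65) in fasted livers and 7.40 to 8.83 (median 8.19) in eating livers. It fell by 2.36 ± 0.18 log2 units, by 2.38 in P2 against Fed and 2.33 in P3 against P3r2. Top2a, a topoisomerase of dividing cells, fell by 1.09 ± 0.16, with values of 2.41 to 2.60 (median 2.52) in fasted and 2.88 to 4.50 (median 3.51) in eating livers beside array medians of 4.34 to 4.46. The lower count of this list was 6 among the brighter transcript clusters, 7 with the array spread as a covariate and 7 with 1 mean per side. Cdkn1a rose by 2.40 ± 0.29 over food, with 10.36 ± 0.38 in P3 and 8.09 ± 0.86 in P2, against 5.69 ± 0.67 in P3r2 and 7.96 ± 0.59 in Fed livers. P2 and Fed overlapped, and P3r2 was 2.27 log2 units below Fed (adjusted p = 0.00796).

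Of 13 glucocorticoid response genes 8 rose and 1, Sgk1, fell, against 8.53% and 11.2% of everything tested (4 higher with 1 mean per side). Gadd45b, a stress-induced gene of this list, read 11.26, 11.24, 11.90 and 11.74 in P3 livers and 5.89, 6.24, 6.14 and 6.70 in P2 livers, against 5.17, 5.35, 5.31 and 5.25 in P3r2 livers and 5.63, 5.23, 5.40 and 5.41 in Fed livers. Its sides did not overlap, yet the P3 livers carried most of the mean of 3.55 ± 0.12 log2 units, since P2 minus Fed was 0.83 (adjusted p = 0.00736). The amino acid response list of ATF4 targets had 6 of 17 higher and 6 lower. These were 3 and 2 with 1 mean per side, and 3 were lower without P2 2.

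Antioxidant enzymes rose in 8 of 31 cases and fell in 6, against 8.53% and 11.2% of everything tested. These counts were 4 and 3 with 1 mean per side. Without Fed 2, and also without all 3 arrays of narrow spread, 11 were lower. Gpx3, a secreted glutathione peroxidase, read 6.96 to 9.25 (median 7.64) in fasted livers, against 5.79 to 6.96 (median 6.32) in eating livers, and rose by 1.48 ± 0.22 log2 units. Haem oxygenase Hmox1 rose by 1.43 ± 0.29 with overlap, from the P3 livers mainly (9.46 ± 1.08 in P3 and 7.36 ± 0.33 in P2, against 7.11 ± 0.38 in P3r2 and 6.84 ± 0.46 in Fed livers). Catalase, Cat, fell by 1.73 ± 0.32 and was likewise low in P3 alone, with 9.29 ± 1.40 there and 11.94 ± 0.31 in P2, against 12.38 ± 0.04 in P3r2 and 12.32 ± 0.13 in Fed livers. With 1 mean per side Hmox1 and Cat were not called (adjusted p = 0.0535 and 0.0532). Superoxide dismutase Sod1 was not called over food at -0.27 ± 0.10 log2 units (adjusted p = 0.0668), since P2 lay above Fed by 0.60 and P3 lay below P3r2 (-1.15). It passed under 8 of the 30 alternatives, with -0.41 log2 units without the 3 arrays of narrow spread.

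Of the 1611 transcript clusters higher in fasted livers, 794 (49.3%) also differed between P3 and P2, 98 (6.08%) differed between P3r2 and Fed, and 789 (49.0%) were called in neither. Of the 2123 lower ones, 817 (38.5%) differed between P3 and P2, 190 (8.95%) between P3r2 and Fed, and 1205 (56.8%) were in neither. Over everything tested, P3 and P2 differed in 4154 transcript clusters (22.0%), with 13.5% higher and 8.53% lower in P3, and P3r2 and Fed in 514 (2.72%), with 2.21% higher and 0.514% lower in P3r2. These comparisons use the same arrays, and the counts say only how evenly a food difference was shared. A difference not called is not shown to be absent. In simulated data, with far fewer genes changed than were called here, the food comparison found 14% of 1.25-fold changes and 68% of 1.5-fold changes. P3 against P2 and P3r2 against Fed, which have larger standard errors than the food comparison, were not simulated. Between P2 against Fed and P3 against P3r2, which share no array, 213 were higher in both, 18.4% of 1158 and 14.2% of 1499. In the falling direction 486 were lower in both, 39.1% of 1242 and 24.6% of 1975. Opposite calls were made in 148 of those higher in P2 and 65 of those lower in P2. Alone, P2 against Fed called 6.13% higher and 6.58% lower (12.7%), and P3 against P3r2 called 7.94% higher and 10.5% lower (18.4%). The difference between the pairs was called in 2403 transcript clusters (12.7%), with 5.72% higher and 7.01% lower in the P3 pair.

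**Figure D3:**
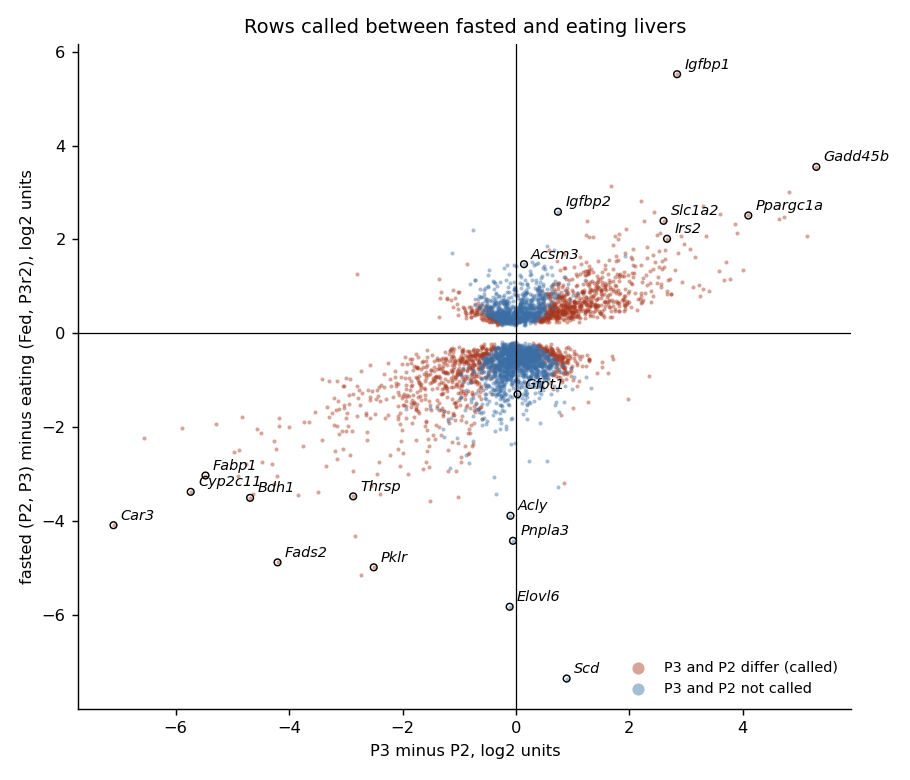
Each point is a transcript cluster called between fasted and eating livers, with P3 minus P2 on the horizontal axis and fasted minus eating on the vertical axis, both in log2 units. Blue points were not called between P3 and P2 and gather near 0 on the horizontal axis (Scd, Acly, Acsm3 and Gfpt1 among them), while Gadd45b, Car3 and Fabp1 lie far out because the phases differ.

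The steadiest genes were chosen for small differences inside each side, so their likeness between the phases follows from the choice. With no overlap, at least 2-fold and no call inside either side there were 35 higher and 109 lower transcript clusters. These were 2.17% of those called higher over food and 5.13% of those called lower. Aig1, a membrane lipid hydrolase, averaged 6.76 ± 0.60 in P3 and 6.48 ± 0.37 in P2 livers, against 5.11 ± 0.07 in P3r2 and 5.10 ± 0.15 in Fed livers, a rise by 1.52 ± 0.17 log2 units. Acsm3, a medium-chain acyl-CoA synthetase, read 10.15 to 11.01 (median 10.76) in fasted livers, against 8.22 to 9.88 (median 9.28) in eating livers, and rose by 1.47 ± 0.20 (adjusted p = 8.1e-05). Rabac1, a membrane protein that binds Rab GTPases, rose by 1.07 ± 0.16, Rcl1, which in yeast processes ribosomal RNA, by 1.06 ± 0.15 and the platelet chemokine Pf4 by 1.13 ± 0.24. For Pf4, P3 minus P3r2 taken alone was not called (adjusted p = 0.0516). Its fasted values of 5.71 to 7.31 (median 6.33) cleared the eating values of 4.69 to 5.68 (median 5.27) by a small margin.

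On the falling side the steady genes were Gfpt1, Sec61a1 and Srebf2, described above, with Trim26 and Htt. Gfpt1 read 7.14, 6.84, 6.51 and 7.04 in P3 and 6.85, 6.85, 7.20 and 6.51 in P2 livers, against 8.33, 8.28, 8.31 and 7.80 in P3r2 and 8.43, 7.85, 7.91 and 8.41 in Fed livers. No fasted value was above 7.2 and no eating value below 7.80. Htt, the huntingtin gene, fell by 1.30 ± 0.16 log2 units (4.94 to 5.85 (median 5.62) fasted, 6.35 to 7.18 (median 6.84) eating) and Trim26, a ubiquitin ligase, by 1.1 ± 0.16. Because they were picked for steadiness, their small differences inside each side are a description.

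**Figure D4:**
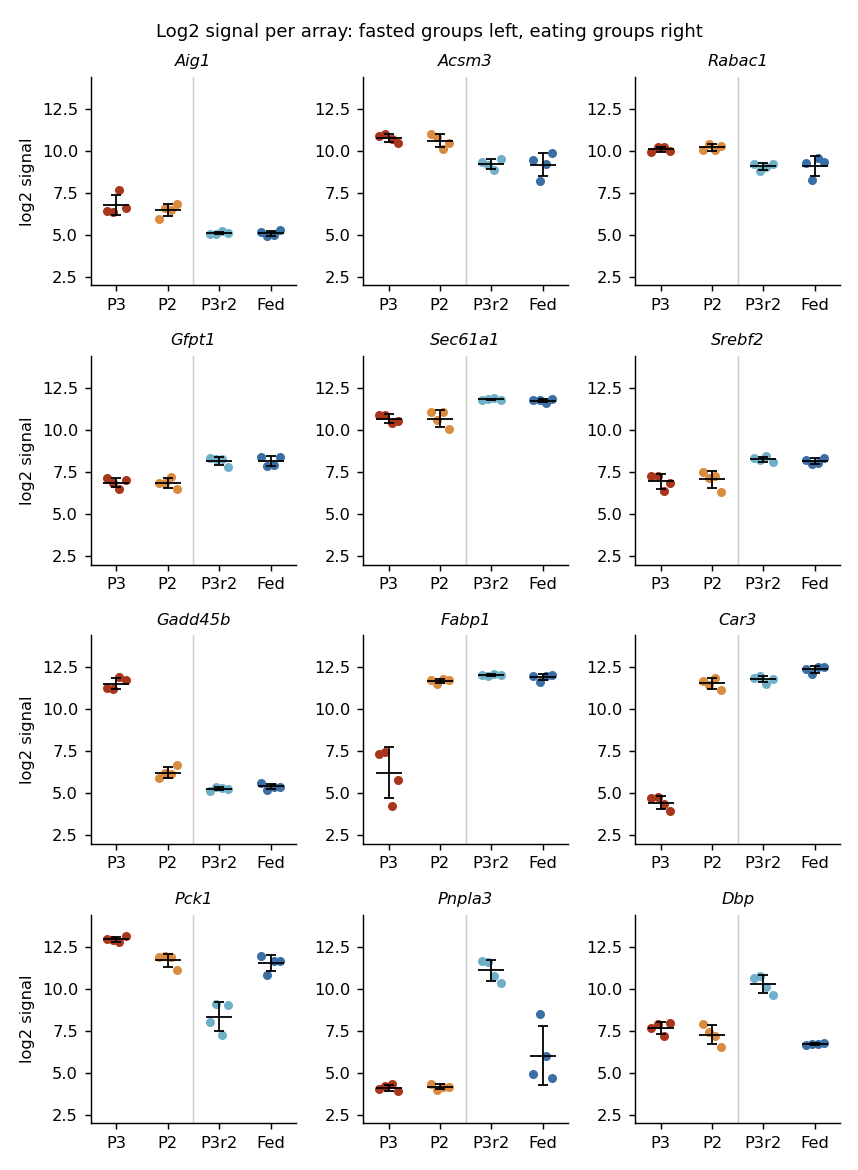
Log2 signal (vertical axis) of 12 genes on each array, P3 and P2 left of the grey line and P3r2 and Fed right of it, with the mean and SD of 4 arrays. The top 2 rows hold steady genes, the third holds genes whose P3 livers stand apart, and the fourth holds genes whose P3r2 livers stand apart from Fed.

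For other genes the mean over both fasted groups stood for 1 of them. Fabp1, the liver fatty acid binding protein, read 7.37, 7.47, 4.27 and 5.77 in P3 and 11.75, 11.52, 11.78 and 11.72 in P2 livers, against 12.06 ± 0.04 (mean and SD) in P3r2 and 11.99, 11.65, 11.98 and 12.03 in Fed livers. The P2 livers overlapped Fed, and the call of -3.03 ± 0.34 log2 units was lost with 1 mean per side (adjusted p = 0.0624). Car3, a carbonic anhydrase of liver and muscle, averaged 4.45 ± 0.39 in P3 and 11.55 ± 0.31 in P2, against 11.79 ± 0.18 in P3r2 and 12.39 ± 0.20 in Fed livers. Its P3 minus P2 difference of -7.10 ± 0.19 exceeded its food difference of -4.09 ± 0.14 log2 units. Cyp2c11, the male-specific P450 under growth hormone control, showed the same order, with 5.95 ± 1.49 in P3 and 11.68 ± 0.41 in P2, against 12.14 ± 0.26 in P3r2 and 12.25 ± 0.25 in Fed livers. Ghr had 7.53 ± 0.67 in P3 and 10.54 ± 0.12 in P2 livers, against 10.87 ± 0.13 in P3r2 and 10.80 ± 0.32 in Fed livers, and P2 overlapped Fed.

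Dhrs7l1, of the short-chain dehydrogenase family, followed neither the phases nor food alone. It had 3.29 ± 0.90 in P3 and 9.17 ± 0.90 in P2, against 6.04 ± 1.71 in P3r2 and 10.47 ± 0.41 in Fed livers. P2 was the group nearest to Fed but averaged below it. The re-fed livers stayed well below Fed (-4.43 ± 0.68 log2 units, adjusted p = 0.00284). The food difference of -2.02 ± 0.48 log2 units was not called with 1 mean per side (adjusted p = 0.37).

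A further set differed inside the eating side. The lipid droplet lipase Pnpla3 read 4.03, 4.18, 4.29 and 3.89 in P3 and 4.33, 3.95, 4.16 and 4.16 in P2 livers, against 11.66, 11.56, 10.76 and 10.33 in P3r2 and 4.88, 8.48, 5.99 and 4.69 in Fed livers. All fasted livers lay within a narrow range just below the array medians of 4.34 to 4.46, Fed 2 stood apart within Fed, and the P3r2 livers were above all. The food difference was -4.42 ± 0.42 log2 units, while P2 minus Fed was not called (adjusted p = 0.0514). Dbp, an output gene of the clock, averaged 7.66 ± 0.34 in P3 and 7.25 ± 0.58 in P2, against 10.25 ± 0.53 in P3r2 and 6.69 ± 0.04 in Fed livers. Its food difference of -1.01 ± 0.20 log2 units went with -2.59 in P3 minus P3r2 and 0.56 in P2 minus Fed, and was not called with 1 mean per side (adjusted p = 0.344). The clock's core activator Bmal1 ran the other way, with 7.39 ± 0.59 in P3 and 6.55 ± 0.55 in P2, against 4.36 ± 0.58 in P3r2 and 7.17 ± 0.51 in Fed livers. Per1, a clock gene that glucocorticoids also raise, rose by 0.95 ± 0.15 log2 units, with 7.72 ± 0.36 in P3 and 6.05 ± 0.36 in P2, against 6.41 ± 0.30 in P3r2 and 5.46 ± 0.17 in Fed livers. The calls of Bmal1 and Per1 were also lost with 1 mean per side (adjusted p = 0.186 for Bmal1 and 0.103 for Per1). Over the clock list 4 of 15 were higher and 5 lower, against 8.53% and 11.2% of everything tested. With 1 mean per side these counts became 1 and 0. The hour of sampling is not given, and its part in these values was not tested.

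Largest rises without overlap, beyond those named, were those of Dcn, Slc1a2, Fmo2, Sat1, Pla1a and Nnmt. Slc1a2, a glutamate transporter, read 7.73 to 11.17 (median 9.74) in fasted livers and 5.92 to 7.59 (median 7.39) in eating livers, and rose by 2.40 ± 0.26 log2 units. The flavin monooxygenase Fmo2 rose by 2.22 ± 0.15, the polyamine acetyltransferase Sat1 by 2.11 ± 0.27, the phospholipase Pla1a by 2.09 ± 0.26 and the nicotinamide methyltransferase Nnmt by 2.08 ± 0.15. Each was higher in P3 than in P2 (adjusted p between 1.1e-05 and 0.0229 for these 5). Among falls, Inhbe, which encodes a secreted activin chain of liver, read 3.35 to 8.40 (median 4.80) in fasted livers, against 8.83 to 10.04 (median 9.41) in eating livers, a fall by 4.32 ± 0.32 log2 units (adjusted p = 1.6e-07). Paqr9, a membrane protein of the progestin and adipoQ receptor family, fell by 3.58 ± 0.24, nearly alike in the pairs (-3.32 in P2 minus Fed and -3.84 in P3 minus P3r2).

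Of 20 cytochromes P450, 5 rose and 5 fell, against 8.53% and 11.2% of everything tested (3 and 2 with 1 mean per side). Cyp2e1, which metabolises acetone and ethanol, read 12.87 to 13.14 (median 13.01) in fasted livers, against 11.87 to 12.65 (median 12.53) in eating livers, a rise by 0.55 ± 0.08 log2 units near the top of the scale. Of 25 plasma protein genes 3 rose (Fgb, Apoh and Apoa5) and 6 fell. Apoa5, an apolipoprotein that lowers plasma triglycerides, rose by 1.05 ± 0.12 (10.76 to 11.80 (median 11.11) fasted, 9.60 to 10.54 (median 10.16) eating). The higher count was 1 without P2 2, P3r2 1 or P3r2 2, and the lower count was 1 with 1 mean per side. Of 13 glutathione S-transferases 2 (Gsto1 and Gstp1) rose and 3 (Gstt1, Mgst1 and Mgst2) fell, with 5 lower without the 3 arrays of narrow spread and 1 lower with 1 mean per side. On the list of bile acid and organic ion transporters 3 of 18 genes rose and 8 fell, or 4 with 1 mean per side. The 3 that rose were Slc13a5 and the amino acid transporters Slc38a4 and Slc38a2. Of 15 nuclear receptors 2 (13.3%) rose (Nr5a2 and Esrra) and 5 (33.3%) fell (Rxra, Esrrg, Nr1h3, Rarb and Ppard). The lower count was 2 or 3 without Fed 1, 3 or 4, P2 2 or 4, P3 2, 3 or 4, or P3r2 1, 2 or 3.

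Markers of other cell types were read beside the 19.8% called over everything tested. None of 6 bile duct, 7 lymphocyte, 9 neutrophil, 3 red cell or 7 muscle and fat markers was called, and 8 of the 9 neutrophil markers lay below the median of all transcript clusters. Of 11 Kupffer cell markers 2 (C1qb and C1qc) rose and 2 (Cd5l and Marco) fell. Leaving out 1 array gave 1 to 3 higher and 0 to 3 lower. The lower count was 0 without Fed 3, P3 1, P3r2 1 or P3r2 2, and 1 without Fed 1 or 4, P2 1, 2 or 4, P3 3 or 4, or P3r2 3. The higher count was 1 without P2 2 or 3, P3 3 or 4, or P3r2 1, 2 or 4. With the array spread as a covariate 4 were higher and 0 lower. The list had summed linear signals of 2437 to 3791 in P3, 2979 to 3797 in P2, 2034 to 3060 in P3r2 and 1670 to 3667 in Fed. Of 5 endothelial markers Fcgr2b rose and Vwf fell. Stellate cell and fibroblast markers moved apart. Decorin, Dcn, a matrix proteoglycan, rose by 2.59 ± 0.28 log2 units (7.11 to 10.53 (median 8.21) fasted, 5.07 to 6.63 (median 5.94) eating), while Lrat, which stores retinol as ester, fell by 1.12 ± 0.16 (6.73 to 7.49 (median 7.10) fasted, 7.53 to 8.59 (median 8.26) eating) and collagen Col3a1 by 1.15 ± 0.35. The call of Col3a1 was lost without Fed 3 or 4, P2 4, P3 2 or 3, or P3r2 1, 2 or 3 (adjusted p up to 0.066) and without the 3 arrays of narrow spread (adjusted p = 0.113). Pdgfrb was the third of 10 markers that fell. The summed linear signals of this list were 1639 to 5185 in P3, 1191 to 1645 in P2, 1348 to 2089 in P3r2 and 1647 to 2831 in Fed, and their part in the other results was not tested.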

How the data were processed

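Whole-transcript cDNA from the livers of 16 rats was read on exon arrays, 1 for each animal and 4 in each group. Deposited were log2 signals of transcript clusters. The submitters' processing notes name GCOS and Affymetrix Expression Console 1.1 as the authors' software, without the summary method or the background correction. That the base of the logarithm is 2 was read from the range of the values, 0.836 to 13.6. At both ends of that range array signals flatten, which can understate a fold. No further scaling was applied.

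Of 19418 transcript clusters, 534 whose IDs lie below the range of the probe annotation were left out. Of the 18884 tested, 13327 carry 1 gene symbol, 620 several and 4937 none. A gene was represented by its brightest transcript cluster with 1 symbol, and 99.3% of these 13215 genes matched RefSeq (GRCr8). The files name no build for the array, so chromosomes and promoters are those of GRCr8.

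One limma 3.58.1 fit (R 4.3.3) with a mean per group over 16 arrays and eBayes gave every p-value, two-sided and adjusted by Benjamini-Hochberg. Replicates are separate animals, numbered in the labels. Of 779 genes on 37 lists, 586 had a transcript cluster. The rule for named genes takes the 10 largest rises and 10 largest falls without overlap, up to 4 called members per list, 28 key genes, 5 steady genes each way and the 5 with the largest phase difference. The text gives values for 83 of these 156 genes. Of the genes named without a value, because a count was small, some are also named by the rule, such as Pfkfb3, Otc and Sgk1. Others fall outside the rule, and all of them were chosen for mention after their values were seen. The comparison, the members and the lists were chosen with earlier results of these data known. Lists were described by counts and medians, with no test of the list. On simulated data with 50 genes changed per fold, the fit called 82% of genes changed 2-fold and 98% of those changed 4-fold, with 8 unchanged ones called. Alternatives were normalization, centring, eBayes options, array weights, a filter on dim rows, the threshold, the model of groups, arrays left out and a trend with gene length. The length trend was chosen after seeing the data. Matplotlib 3.10.9 drew the figures.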

Additional observations from a re-analysis of the deposited data

Results flagged for a closer look

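For 48 of the 83 genes with values above, 44 of them called over food, the food difference of P3 minus P3r2 differed from that of P2 minus Fed, by the interaction term of the limma fit over all 18884 transcript clusters. The values here are the first difference minus the second, in log2 units, and a positive one means that the P3 pair lay higher. A rise over food was larger in the P3 pair for Igfbp1 (4.77), Gadd45b (5.44), Dcn (2.45), Slc1a2 (2.56), Fmo2 (1.55), Sat1 (2.03), Nnmt (1.13) and Trib3 (1.18). The same held for Ppargc1a (3.0), Pck1 (4.42), G6pc1 (3.49), Irs2 (2.83), Asl (0.953), Hmox1 (1.83) and Cdkn1a (4.54). It held as well for Gabarapl1 (0.841), Map1lc3b (1.52), Ctsl (1.15), Apoa5 (1.01) and Bmal1 (3.64). Ech1 was the 1 gene that rose over food with a smaller rise in the P3 pair (-1.2).

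A fall over food was larger in the P3 pair for the lipid and glucose genes Elovl6 (-3.02), Fads1 (-3.38), Fads2 (-5.23), Pklr (-2.9), Pnpla3 (-5.12), Acly (-1.35), Acat2 (-2.08), Msmo1 (-1.59), Nsdhl (-2.72), Thrsp (-3.66), Ppp1r3b (-2.84), Plin2 (-1.78), Bdh1 (-4.26) and Fabp1 (-5.62). It was also larger for Inhbe (-2.4), Cyp2c11 (-5.63), Ghr (-3.07), Dbp (-3.14), Cat (-2.71), Car3 (-6.49) and the folding genes Hyou1 (-1.04), Pdia6 (-1.92) and Calr (-1.37). Among these called genes the pairs had opposite signs for Bmal1, G6pc1 and Dbp, with P3 minus P3r2 at 3.03, 2.86 and -2.59 and P2 minus Fed at -0.62, -0.62 and 0.56. The remaining 4 genes, not called over food, also had opposite signs. These were Insr (1.36), Pdk4 (1.47), Foxo1 (1.03) and Sod1 (-1.75), with P3 minus P3r2 at 0.69, 0.75, 0.67 and -1.15 and P2 minus Fed at -0.67, -0.71, -0.35 and 0.60. The pairs differ in the fasting phase and in whether the eating rats had been re-fed, and this difference alone does not separate them. It equals P3 minus P2 less P3r2 minus Fed, and these parts weighed differently by gene. P3 minus P2 was -0.10 for Acly, -4.20 for Fads2 and -5.47 for Fabp1. For the same genes P3r2 minus Fed was 1.25, 1.03 and 0.14.

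In 332 sets of 4 arrays, one for each of the 83 genes in each group, 19 held an array far from the other 3 by Dixon's test, where chance gives about 1 in 20. Fed 2 was that array 9 times, with log2 signals of 5.93 for Slc1a2, 6.78 for Sat1, 10.9 for Nsdhl, 11.6 for Fabp1, 11.9 for Cyp2c11, 11.9 for Cyp2e1, 9.92 for Ctsl, 9.97 for Apoa5 and 7.53 for Lrat. The other arrays so found were Fed 4 for Scd (11.7), P3 3 for Acly (7.03), P3 1 for Paqr9 (6.51), P2 4 for Pck1 (11.1) and Igf1 (10.9), and P2 3 for Plin2 (9.56). In the re-fed group they were P3r2 1 for Apoa5 (9.6) and Cdkn1a (4.68), P3r2 3 for Col3a1 (8.37) and P3r2 4 for Gfpt1 (7.8). Fed 2 also had one of the narrowest spreads of values.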

How the results depend on the processing

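Fasted against eating livers gave 1611 transcript clusters higher and 2123 lower. These counts became 834 and 1382 at an adjusted p below 0.01, 776 and 1378 with a mean per side, and 228 and 532 for at least 2-fold changes. Leaving out any 1 array gave 1275 to 1715 higher and 1782 to 2464 lower. After quantile normalization there were 2101 and 2155, with arrays centred on their medians 1360 and 2254, and without the 3 arrays of narrow spread 1452 and 2242. P3 against P2 gave 4154, or 2618 at an adjusted p below 0.01 (3334 to 4609 with 1 array left out). P3r2 against Fed gave 514, or 1467 with array weights and 169 at an adjusted p below 0.01. With 1 array left out this count was 242 to 624: 318 without Fed 2 and 249, 269, 242 and 302 without P3r2 1, 2, 3 and 4. The difference between the pairs gave 2403, or 1215 at an adjusted p below 0.01 and 3606 with the array spread as a covariate (1891 to 2833 with 1 array left out). The causes of these moves were not tested, beyond fewer arrays or a stricter threshold where those were the change. Animals of equal number in different groups did not pair: over 24 pairs their deviations correlated at -0.40 to 0.26, and 3 of 16 arrays correlated best with their own number. With the replicate number as a block, 1462 were higher and 1940 lower, 3895 differed between P3 and P2, 424 between P3r2 and Fed and 2150 between the pairs. Of 83 genes with values, 78 were called. Of these 66 kept the call under all 30 alternatives, and Top2a kept it under the 27 that could be run for so dim a gene. Fabp1, Bmal1, Dbp, Per1, Cat, Hmox1, G6pc1, Cpt1a and Dhrs7l1 were lost with a mean per side, and Igf1 and Col3a1 under 3 and 12 settings. Insr, Pdk4 and Ppara lay near 0 and changed sign under some settings, in none of which they were called. With arrays centred on their medians the differences were -0.0155 for Insr, -0.0073 for Pdk4 and -0.0178 for Ppara. Pdk4 was also -0.0405 with array weights, -0.0466 without the 3 narrow arrays and -0.0069 with the length trend out. With 1 array left out Insr lay between -0.068 and 0.10 (below 0 without Fed 2, P2 1, P2 3, P3 1 or P3r2 4), Pdk4 between -0.10 and 0.18 (below 0 without P2 3, P3 3, P3 4 or P3r2 4) and Ppara between -0.10 and 0.15 (below 0 without Fed 2, P2 1, P2 3, P3 1, P3 2, P3r2 3 or P3r2 4). At an adjusted p below 0.01, list counts of 3 or more moved by over 1.5 times for insulin targets (4 higher in place of 8), ATF4 targets (3 lower in place of 6), clock (3 lower in place of 5), citric acid cycle (1 higher in place of 3), proteasome (3 higher in place of 9, 2 lower in place of 4), autophagy (3 lower in place of 6), plasma proteins (1 higher in place of 3), cell cycle (5 lower in place of 12), fatty acid uptake (0 higher in place of 3) and nuclear receptors (2 lower in place of 5). Array weights gave 5 higher in fatty acid uptake, 12 lower antioxidant enzymes and 5 lower glutathione S-transferases. Quantile normalization gave 5 higher in fatty acid oxidation. The settings with gene length were chosen after seeing the data: 1819 were higher and 1928 lower with its trend taken out, against 1349 and 1977 in the same transcript clusters before.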
